A study of Mus musculus with 12 samples.

Results

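The nuclear genes that encode subunits of the mitochondrial respiratory chain and of ATP synthase were followed across 4 cell types of C57BL/10.RIII mice, with 3 arrays each. Members were taken by gene symbol: every nuclear Ndufa, Ndufb, Ndufc, Ndufs and Ndufv gene other than the Ndufaf assembly factors, Sdha to Sdhd, the Uqcr genes, Cyc1, the Cox4 to Cox8 genes and the Atp5 genes. The rule found 83 of the 18193 genes that had a probe set of their own on the Affymetrix Mouse430_2 array, each read by its brightest probe set. Complex I had 36 members, complex II 4, complex III 9, complex IV 17 and complex V 17, where Ndufa4 and Ndufa4l2 are counted in complex I by their symbols. Of the 83, 80 passed the filter on dim probe sets, a mean of at least 4.05 log2 over the 12 arrays, and the 3 that did not were Ndufb4, Cox7b2 and Cox8b. Ndufa11 and Ndufs6 were read only by probe sets that carry several gene symbols and were not counted.

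The first group, iFoxA1Treg, is labelled as FoxA1 regulatory T cells induced with interferon beta and as CD4hi and PD-L1hi. The second, nFoxA1Treg, has the same surface labels but 2 names: its titles call it neuron induced, and its stated cell type is natural. The third, Treg, is labelled CD4+ and TGFbeta+, and the fourth, EncT, holds encephalitogenic T cells labelled CD4+. No treatment, age, sex or source animal is given for any group, and nothing says whether the replicates came from different mice, so the p-values here speak of the variation among these arrays alone, which may be technical. With 3 arrays a group, the number of arrays limits the precision.

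Complexes I to IV sit in the inner mitochondrial membrane and pass electrons along a chain that ends at oxygen, and complexes I, III and IV pump protons as they do so. Complex I takes electrons from NADH, complex II takes them from succinate and is also an enzyme of the citric acid cycle, complex III hands them to cytochrome c, and complex IV, cytochrome c oxidase, gives them to oxygen. Complex V, the ATP synthase, lets the protons back through a rotating ring and makes ATP. In T cells, activated effector cells are known for strong glycolysis, and regulatory and memory cells for a larger use of respiration.

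Many respiratory chain genes have compact promoters that hold sites for NRF-1, the factor encoded by Nrf1, and for ETS factors such as GABP. RefSeq promoter windows, from 250 bases before to 50 after the start on GRCm38.p6, were matched for 67 of the 83 members and for 27025 genes in all. The NRF-1 letters (GCGCA, any base, then GCGC), read on both strands, occurred for 15 members (22.4%, against 5.19% of all genes with a window). A gene with several windows was counted once, if any of them held the letters. The ETS letters CCGGAAG occurred for 17 members (25.4%, against 9.93%), and the YY1 letters AAGATGGCG for 6 (8.96%, against 1.64%). The letters CCAAT, used as a common promoter element for contrast, occurred for 28 (41.8%, against 41.1%). These are letter matches that may overlap one another and were not tested as binding sites.

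The windows of 4 members are printed because they show the NRF-1 and ETS letters, in capitals, in genes that passed the test against EncT in the comparisons of both nFoxA1Treg and Treg. They were chosen after their values were seen. Each runs 5′ to 3′ from 250 bases before to 30 after the start. Of 12 members with a window that were called the same way in both comparisons, 3 held the NRF-1 letters and 3 the ETS letters, beside 15 and 17 of all 67. Ndufa6, lower in both comparisons, also held the NRF-1 letters in its full window, but not within this shorter stretch, so it is not printed. Atp5k, at chr5:108434370-108434649 on the minus strand, encodes a membrane subunit of ATP synthase and holds both motifs. Ndufa5, at chr6:24527661-24527940 on the minus strand, encodes an accessory subunit of complex I and holds the NRF-1 letters. Ndufb7, at chr8:83566508-83566787 on the plus strand, encodes another accessory subunit of complex I and holds the ETS letters. Uqcrh, at chr4:116075041-116075320 on the minus strand, encodes the hinge subunit of complex III and also holds the ETS letters, though its level moved opposite to the levels of the other 3 printed genes, as given below.
Atp5k: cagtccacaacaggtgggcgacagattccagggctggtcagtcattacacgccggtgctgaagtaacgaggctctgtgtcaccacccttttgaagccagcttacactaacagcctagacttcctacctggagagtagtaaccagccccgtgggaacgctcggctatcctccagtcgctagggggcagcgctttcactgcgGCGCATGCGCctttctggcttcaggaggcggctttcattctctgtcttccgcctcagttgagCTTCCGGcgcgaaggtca
Ndufa5: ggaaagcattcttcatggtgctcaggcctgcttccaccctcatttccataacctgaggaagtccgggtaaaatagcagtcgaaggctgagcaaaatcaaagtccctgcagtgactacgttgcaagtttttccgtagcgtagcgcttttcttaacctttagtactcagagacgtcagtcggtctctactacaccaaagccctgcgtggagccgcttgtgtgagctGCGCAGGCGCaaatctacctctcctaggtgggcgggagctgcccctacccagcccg
Ndufb7: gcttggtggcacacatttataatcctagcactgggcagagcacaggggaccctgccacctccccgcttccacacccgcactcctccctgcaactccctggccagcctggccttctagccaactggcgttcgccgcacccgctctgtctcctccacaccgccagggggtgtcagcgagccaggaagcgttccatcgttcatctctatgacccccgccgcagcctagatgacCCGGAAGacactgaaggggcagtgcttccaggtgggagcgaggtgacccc
Uqcrh: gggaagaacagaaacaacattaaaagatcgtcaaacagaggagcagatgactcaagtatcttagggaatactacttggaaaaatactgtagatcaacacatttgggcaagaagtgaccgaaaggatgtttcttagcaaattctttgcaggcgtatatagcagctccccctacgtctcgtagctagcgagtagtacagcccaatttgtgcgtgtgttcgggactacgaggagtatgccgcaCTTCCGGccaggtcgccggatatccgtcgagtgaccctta

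The arrays labelled iFoxA1Treg went against the CD4hi part of their label. Cd4, the coreceptor named in every group's surface label, was at 4.24 ± 0.103 log2 in iFoxA1Treg, 10.44 ± 0.0678 in nFoxA1Treg, 10.39 ± 0.0569 in Treg and 10.57 ± 0.0167 in EncT, each with its SD over 3 arrays. Cd274, which encodes PD-L1, was at 10.01 ± 0.0395, 7.34 ± 0.126, 7.31 ± 0.0379 and 7.63 ± 0.159 log2 in the same order. It was higher in iFoxA1Treg than in EncT by a log2 change of 2.38 (adjusted p = 2.2e-11), the direction of the PD-L1hi label. In nFoxA1Treg, which carries that label too, it was lower than in EncT (-0.29, adjusted p = 0.0267). The summed linear level of 7 B cell markers was 20810 to 22670 in iFoxA1Treg and at most 212.5 in the other groups, and that of 10 macrophage markers was 14010 to 14170 and at most 291.4. The sum of 10 T cell markers was 5012 to 5190 in iFoxA1Treg, against 18370 to 21010 over the other 9 arrays. Xist was at 2.11 ± 0.847 log2 in iFoxA1Treg and at 11.07 to 11.52 on average elsewhere, so sex and label cannot be told apart in comparisons with those arrays. Foxp3, the defining gene of regulatory T cells, lay below the filter level in nFoxA1Treg, Treg and EncT. The other 6 of 7 regulatory T cell markers were at or above it there, and in iFoxA1Treg all 7 were. The summed linear level of the 7 was 1825 to 1968 in iFoxA1Treg, 3984 to 4536 in nFoxA1Treg, 4121 to 4325 in Treg and 3514 to 3874 in EncT. Results for iFoxA1Treg are therefore given last and are directions for the arrays that carry that label, not for a cell type. In RNA from a mixture, fewer cells of a type and less RNA per cell cannot be told apart.

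**Figure D1:**
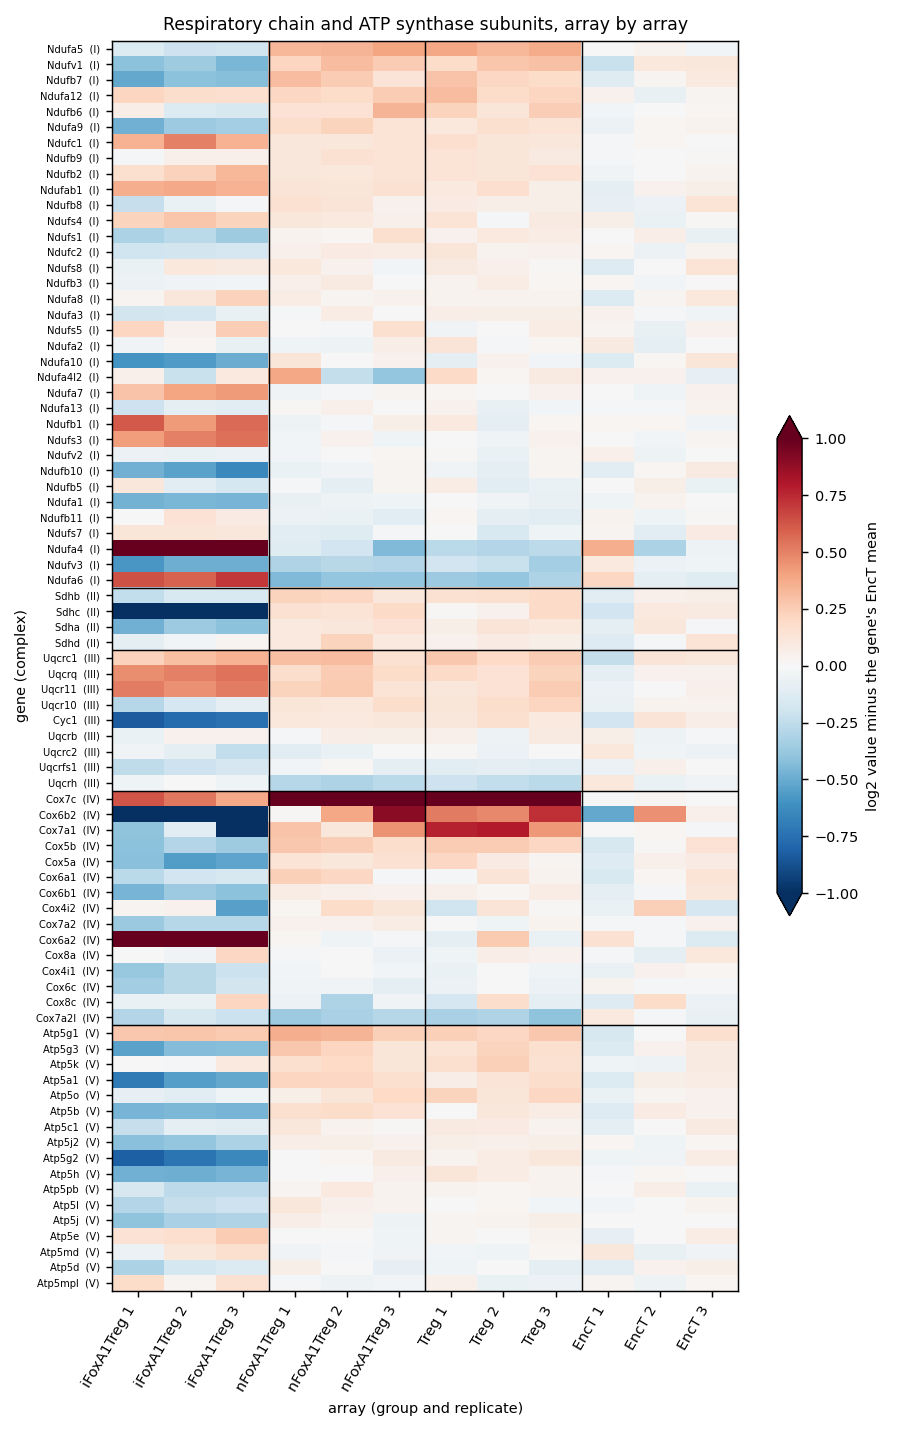
Heat map of the 80 members past the filter (rows, grouped by complex and sorted by the mean of nFoxA1Treg and Treg minus EncT) on the 12 arrays (columns), coloured by log2 value minus the gene's EncT mean, with the scale ending at 1 in either direction. Cox7c stands out in nFoxA1Treg and Treg, and the iFoxA1Treg columns differ from the other 9 in many rows, in both directions.

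Setting nFoxA1Treg against EncT asks how the FoxA1 cells called neuron induced differ from the cells that drive the disease. In nFoxA1Treg 17 of the 80 tested members were higher than in EncT, 4 were lower and 59 did not pass limma's test at an adjusted p under 0.05. The called share was 26.2%, beside a background of 19.6% of the 12609 genes tested. The higher members made up 21.2% (background 8.46%) and the lower ones 5% (background 11.2%). The median log2 change over the members was 0.0521, against -0.0045 over all genes, and 53 of the 80 lay above 0. Only Cox7c changed at least 2-fold among the called members. The values of nFoxA1Treg and EncT were fully separated for 35 members, 43.8%, beside 33.7% of all genes. In complex I 7 members rose and 2 fell, in complex II 1 rose, in complex III 2 rose and 1 fell, in complex IV 2 rose and 1 fell, and in complex V 5 rose and none fell.

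In complex I, which oxidises NADH, the called members included one of its catalytic subunits and small accessory ones. Ndufa5, an accessory subunit (chromosome 6, 24518662 to 24527690, GRCm38.p6, whose promoter is printed above), read 9.34, 9.35 and 9.40 log2 in nFoxA1Treg and 9.39, 9.34 and 9.38 in Treg, against 9.0, 9.04 and 8.98 in EncT. Every array of nFoxA1Treg and Treg lay above every EncT array. The log2 change was 0.35 in nFoxA1Treg (SE 0.0433, adjusted p = 0.000273) and 0.36 in Treg (adjusted p = 0.000359). A second probe set of Ndufa5 gave 0.29 and 0.33. Ndufv1, which carries the flavin and the NADH site, read 9.99, 10.08 and 10.03 in nFoxA1Treg and 9.96, 10.05 and 10.07 in Treg, against 9.55, 9.88 and 9.89 in EncT. EncT replicate 1 lay far below the other EncT arrays, and the change of 0.26 in nFoxA1Treg (SE 0.0761, adjusted p = 0.0298) was 0.15 without it (adjusted p = 0.0607).

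Ndufa6, another accessory subunit of complex I (chromosome 15, 82350139 to 82354291), went the other way. Its values were 9.81, 9.86 and 9.86 log2 in nFoxA1Treg and 9.89, 9.86 and 9.94 in Treg, against 10.46, 10.16 and 10.13 in EncT. The groups did not overlap, and the log2 change was -0.41 in nFoxA1Treg (SE 0.0731, adjusted p = 0.00243) and -0.35 in Treg (adjusted p = 0.00696). Without EncT replicate 1, the highest of the EncT arrays, the changes were -0.30 and -0.25, both still called. Ndufv3, a small accessory subunit of the part that oxidises NADH, read 10.21, 10.23 and 10.22 in nFoxA1Treg and 10.32, 10.29 and 10.17 in Treg, against 10.61, 10.45 and 10.47 in EncT. It was lower by a log2 change of -0.29 in nFoxA1Treg (adjusted p = 0.00295) and -0.25 in Treg (adjusted p = 0.00925).

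In complex II, succinate dehydrogenase, all 4 members had means above EncT, but Sdhb alone passed the test in nFoxA1Treg and none did in Treg. Sdhb, the iron-sulfur subunit, read 10.98, 10.97 and 10.87 log2 in nFoxA1Treg and 10.91, 10.92 and 10.95 in Treg, against 10.65, 10.81 and 10.82 in EncT. The log2 change was 0.18 in nFoxA1Treg (SE 0.0535, adjusted p = 0.0333), and 0.17 in Treg, where the adjusted p of 0.0506 just missed the threshold. Without EncT replicate 1 the change in nFoxA1Treg was 0.12 (adjusted p = 0.115). The flavin subunit gene Sdha and the membrane anchors Sdhc and Sdhd had log2 changes of 0.12, 0.16 and 0.14 in nFoxA1Treg, none called.

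Complex III held members of either direction. Uqcrh, the hinge subunit, which helps cytochrome c dock, read 10.97, 10.95 and 10.99 log2 in nFoxA1Treg and 11.05, 11.01 and 10.99 in Treg, against 11.36, 11.19 and 11.22 in EncT. All EncT arrays were above all others of these groups, and the log2 change was -0.29 in nFoxA1Treg (SE 0.0465, adjusted p = 0.00133) and -0.24 in Treg (adjusted p = 0.00524). Cyc1, cytochrome c1, the electron carrier of complex III that reduces cytochrome c, was not called: its log2 change was 0.11 in nFoxA1Treg (95% interval -0.037 to 0.248) and 0.12 in Treg (-0.02 to 0.265). Uqcr11 and Uqcrq, small accessory subunits, made up the 2 rises in nFoxA1Treg, each by a log2 change of 0.20.

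Complex IV gave the change of greatest size among the members. Cox7c, a small membrane-spanning subunit (chromosome 13, 86044798 to 86046795), read 7.51, 7.41 and 7.41 log2 in nFoxA1Treg and 7.44, 7.36 and 7.41 in Treg, against 6.11, 6.16 and 6.13 in EncT. The arrays of nFoxA1Treg and Treg stood more than 1 log2 unit above every EncT array. The log2 change was 1.31 in nFoxA1Treg (SE 0.078, a fold of 2.49) and 1.27 in Treg (a fold of 2.41). The chosen probe set has a suffix that marks probes shared between transcripts. A second, dimmer probe set of Cox7c without that suffix gave 1.37 and 1.03, both called when all probe sets were tested (adjusted p = 0.00387 and 0.021). Both probe sets were dim beside common subunits of the complex. In EncT the chosen one had a linear mean of 70.16, where Cox4i1 had 4326 and Cox6c 3210. Whether they read the main Cox7c transcript was not tested.

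Cox7a2l, a relative of the Cox7a subunits that joins complexes III and IV into supercomplexes, was lower. It read 11.28, 11.32 and 11.36 log2 in nFoxA1Treg and 11.32, 11.34 and 11.24 in Treg, against 11.74, 11.62 and 11.57 in EncT, with no overlap. The log2 change was -0.33 in nFoxA1Treg (SE 0.052, adjusted p = 0.00129) and -0.35 in Treg (adjusted p = 0.00122), and all 3 probe sets of the gene gave -0.33 in nFoxA1Treg. Cox7a2, the Cox7a isoform found in most tissues, did not pass the test (0.06 in nFoxA1Treg, 95% interval -0.029 to 0.148). The tissue-restricted isoforms Cox4i2, Cox6a2, Cox6b2, Cox7a1 and Cox8c, and their common partners Cox4i1, Cox6a1, Cox6b1 and Cox8a, were not called against EncT in either group. On the scale log2(value + 16), however, Cox7a1 was called in Treg (0.398, adjusted p = 0.036). Of these, Cox6b2 and Cox7a1 had the widest intervals, -0.194 to 1.057 and -0.267 to 0.831 in nFoxA1Treg.

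In ATP synthase the called members came from the ring, the catalytic head and the membrane part. The ring gene Atp5g1 (chromosome 11, 96072793 to 96075694) read 9.55, 9.53 and 9.43 log2 in nFoxA1Treg and 9.43, 9.40 and 9.46 in Treg, against 9.03, 9.19 and 9.35 in EncT. The EncT arrays were spread over a wider range than the others and still lay below them all, with a log2 change of 0.31 in nFoxA1Treg (SE 0.0679, adjusted p = 0.00723) and 0.24 in Treg (adjusted p = 0.0307). With the arrays of the compared groups alone the call in nFoxA1Treg was lost (adjusted p = 0.0556), and it stood under the other 23 alternatives. Atp5g1, Atp5g2 and Atp5g3 encode the same mature c subunit of the ring. Atp5g3 changed by 0.21 in nFoxA1Treg (adjusted p = 0.0314), and by 0.17 in Treg, which was not called (adjusted p = 0.0676). Atp5g2 was not called in either (0.03 in nFoxA1Treg, 95% interval -0.076 to 0.146, and 0.08 in Treg, -0.032 to 0.19). Atp5a1 and Atp5b, the alpha and beta subunits of the catalytic head, were higher in nFoxA1Treg by log2 changes of 0.19 and 0.16, and Atp5k by 0.16.

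**Figure D2:**
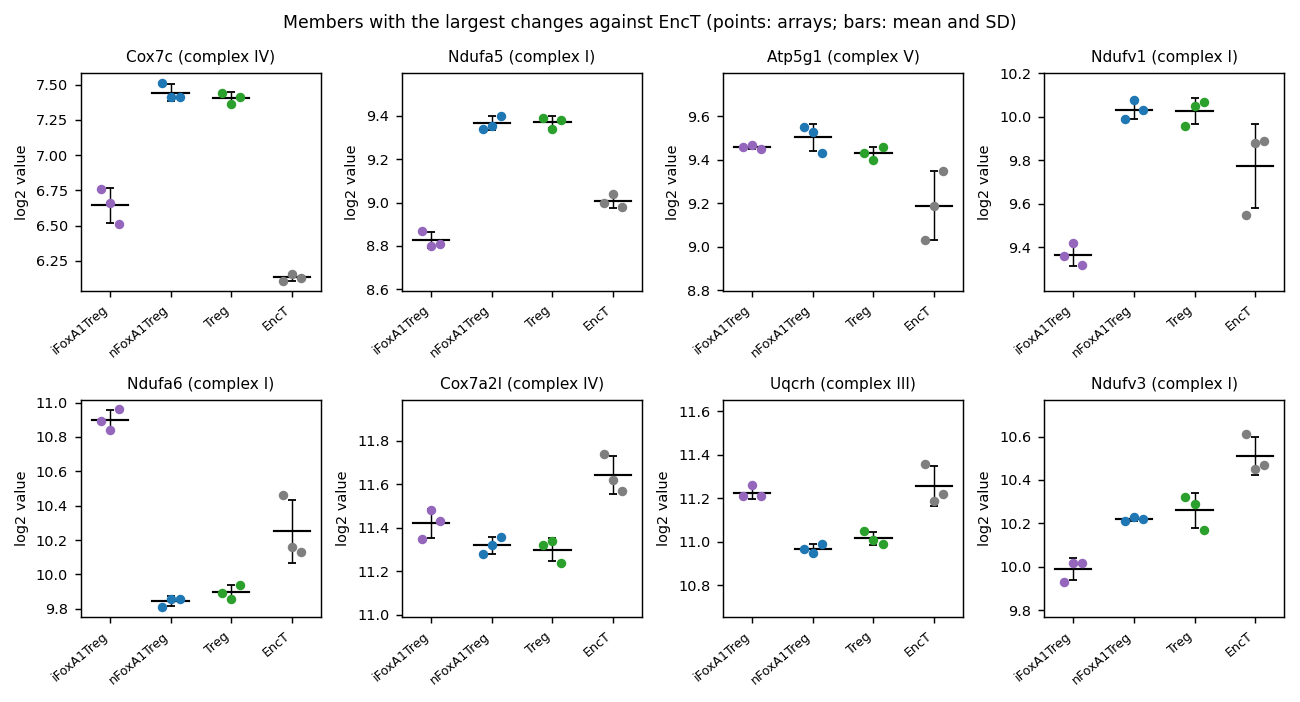
Log2 values on each array (points) with the group mean and SD (bars) for 8 members among those of largest change against EncT, groups from left to right iFoxA1Treg, nFoxA1Treg, Treg and EncT, each panel with its own axis, none starting at 0. Cox7c, Ndufa5, Atp5g1 and Ndufv1 are higher, and Ndufa6, Cox7a2l, Uqcrh and Ndufv3 lower, in nFoxA1Treg and Treg than in EncT, where replicate 1 is often the most extreme array.

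Part of these counts rested on single arrays. EncT replicate 1 was the lowest EncT array for 43 of the 80 members, for 14 of the 17 that were higher in nFoxA1Treg, and the highest for all 4 that were lower. Without it 9 members were called, 11.2% beside a background of 14%, and the median change was 0.0565. The 5 higher members were then 6.25% (background 5.43%) and the 4 lower ones 5% (background 8.59%). Without nFoxA1Treg replicate 1 the count was 9, again 5 higher and 4 lower (11.2%, background 12.1%, and for the higher members 6.25%, background 4.91%). Without nFoxA1Treg replicate 2 it was 8, with 4 in each direction (10%, background 12%, and for the higher members 5%, background 4.85%). In these 3 settings the members' share lay below that of all genes, and the share of higher members lay near its background. Without nFoxA1Treg replicate 1, 2 or 3 the call of Ndufv1 was lost (adjusted p = 0.0577, 0.103 and 0.0638), and without replicate 1 or 2 those of Sdhb (adjusted p = 0.116 and 0.114) and Atp5g3 (adjusted p = 0.125 and 0.0867). Atp5g3 was at 0.14 without EncT replicate 1 (adjusted p = 0.11). Cox7c, Ndufa5, Ndufa6, Cox7a2l, Uqcrh and Ndufv3 were called in nFoxA1Treg under all 24 alternative settings run.

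The comparison of Treg with EncT puts regulatory cells not named for FoxA1 against the same EncT arrays. In Treg 11 of 80 members were higher and 4 lower, 18.8% beside a background of 16.5% of all genes. The higher ones made up 13.8% (background 6.23%) and the lower ones 5% (background 10.3%). The median log2 change was 0.0537, against -0.0038 over all genes, and 58 members lay above 0. The groups did not overlap for 34 members, 42.5%, beside 33.3% of all genes. The 4 that fell were Ndufa6, Ndufv3, Uqcrh and Cox7a2l, described above. Among the 11 that rose, complex I had Ndufa5, Ndufa12, Ndufb7 and Ndufv1, complex III Uqcrq and Uqcr10, complex IV Cox7c and Cox5b, and complex V Atp5g1, Atp5k and Atp5o.

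Ndufa12, an accessory subunit of complex I, read 10.43, 10.41 and 10.48 log2 in nFoxA1Treg and 10.53, 10.41 and 10.44 in Treg, against 10.27, 10.15 and 10.25 in EncT. All Treg arrays exceeded all EncT arrays, with a log2 change of 0.24 (SE 0.0464, adjusted p = 0.00511). Atp5o, part of the stalk that holds the catalytic head of ATP synthase, read 10.45, 10.51 and 10.59 in nFoxA1Treg and 10.61, 10.51 and 10.60 in Treg, against 10.32, 10.42 and 10.43 in EncT. Its change in Treg was 0.18 (SE 0.0488, adjusted p = 0.024). Ndufv1 changed by 0.25 in Treg (adjusted p = 0.0402), and of the 24 alternatives 10 kept that call.

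Without EncT replicate 1 the Treg count was 7, 3 higher and 4 lower (8.75%, background 11.2%), and the higher members were 3.75%, beside 3.67% of all genes. Without Treg replicate 1 it was also 7 (8.75%, background 11.6%), with 3.75% higher (background 4.29%). Without Treg replicate 2 it was 9 (11.2%, background 8.03%), with 6.25% higher (background 2.6%), and without Treg replicate 3 it was 7 (8.75%, background 8.45%), with 3.75% higher (background 2.49%). Leaving out EncT replicate 1 took Ndufv1 to 0.14 (adjusted p = 0.0831), Atp5g1 to 0.16 (adjusted p = 0.086) and Atp5o to 0.15 (adjusted p = 0.0715). Without Treg replicate 1, 2 or 3 the call of Atp5g1 was lost (adjusted p = 0.0723, 0.0744 and 0.101), and without Treg replicate 1 or 3 that of Atp5o (adjusted p = 0.0802 and 0.0882). The calls of Cox7c, Ndufa5, Ndufa6, Cox7a2l, Uqcrh and Ndufa12 stood under all 24 alternatives. That of Ndufv3 was lost without Treg replicate 3, with an adjusted p of 0.05 after rounding. An F test for a difference anywhere among nFoxA1Treg, Treg and EncT called 16 members, 20%, beside a background of 16.8% of all genes, and 8 without EncT replicate 1 (10%, background 11%).

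Between nFoxA1Treg and Treg no respiratory chain member passed the test. The comparison asks whether the FoxA1 cells differ from other regulatory cells. Limma called 0 of the 80 members, where the background was 0.00793%, a single gene of 12609. An unadjusted p under 0.05 was found for 0 members and for 468 of the 12609 genes. The median log2 difference was 0.0026, against 0.0061 over all genes, and the arrays of the 2 groups did not overlap for 6 members, 7.5%, beside 11.2% of all genes. For 76 members the 95% interval of the difference lay within 0.5 of 0 on the log2 scale. The other 4 were Ndufa4l2, Cox4i2, Cox6b2 and Cox7a1. Cox7a1, the muscle isoform of Cox7a, had the difference of greatest size, -0.39 (95% interval -0.936 to 0.162). Atp5b had the smallest unadjusted p (difference 0.09, 95% interval -0.017 to 0.203), and its adjusted p, like that of every other member, was 1. A p that misses the threshold does not show that the groups were alike.

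**Figure D3:**
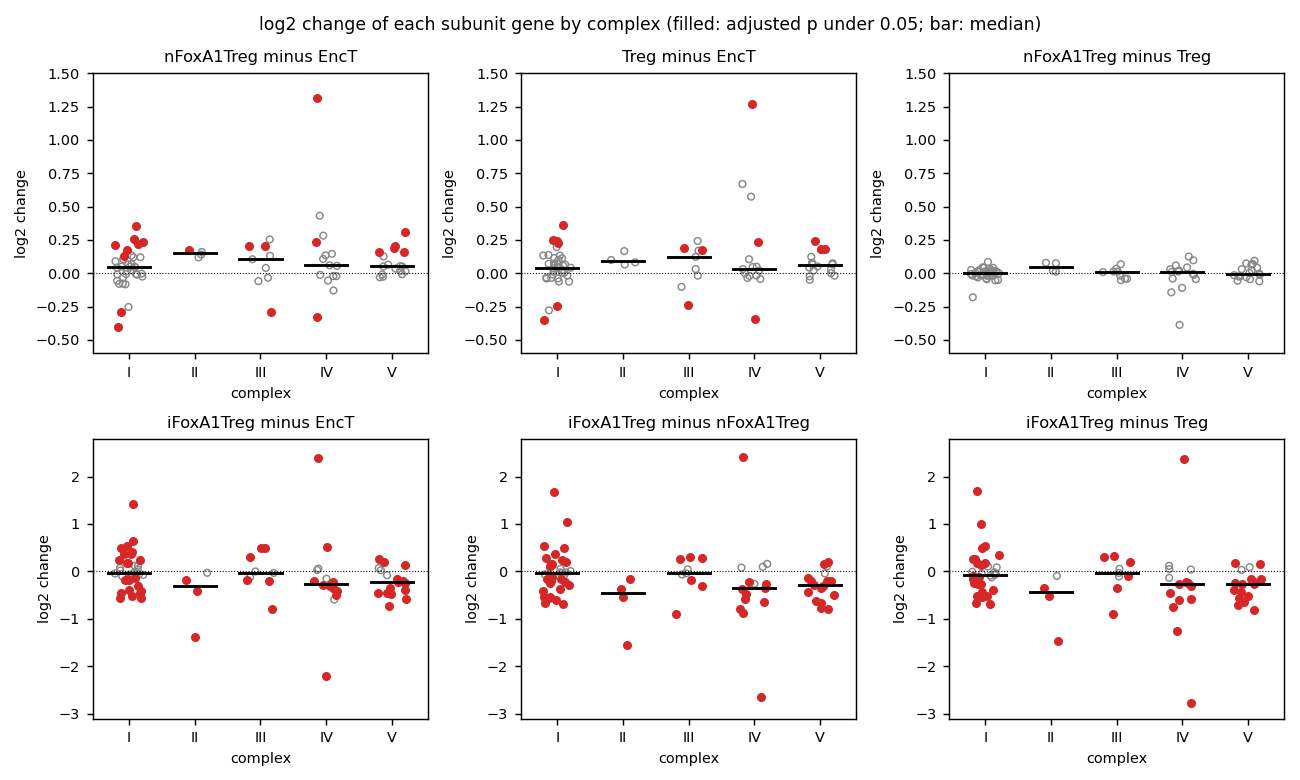
Log2 change of each of the 80 members (points) by complex in the 6 comparisons, filled where the adjusted p was under 0.05, with the median of each complex as a bar. The upper row spans -0.6 to 1.5 and the lower row -3.1 to 2.8, so the 2 rows are not on the same scale. Cox7c is the point above 1 in nFoxA1Treg and in Treg minus EncT, no point is filled in nFoxA1Treg minus Treg, and the filled points lie on both sides of 0 in the comparisons of iFoxA1Treg.

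In the arrays labelled iFoxA1Treg the subunit genes diverged in both directions, as did the rest of the transcriptome. Against EncT 19 of 80 members were higher and 38 lower, 71.2% beside a background of 72.2%. Against nFoxA1Treg 17 were higher and 45 lower (77.5%, background 74.4%), and against Treg 16 and 44 (75%, background 73.6%). The lower members made up 47.5%, 56.2% and 55% in that order, where 38.3%, 39.2% and 38.4% of all genes were lower. The arrays did not overlap for 58 members against EncT (72.5%, background 73.4%), 64 against nFoxA1Treg (80%, background 77.7%) and 62 against Treg (77.5%, background 77.7%). The median log2 changes were -0.1303, -0.1866 and -0.157, against -0.0243, -0.0229 and -0.0189 over all genes. The balance depended on the scaling of the arrays. With each array centred on its median the counts were 23 higher and 28 lower against EncT and 20 and 33 against Treg, and with the values as deposited they were 13 and 44 and 11 and 50. In iFoxA1Treg minus EncT the members' median was then close to that of all genes. It was -0.041 beside -0.04 with centred arrays, and -0.182 beside -0.181 as deposited. Among the scalings run, the lower median against EncT was thus seen only with quantile normalization. Against nFoxA1Treg and Treg the members' medians stayed below those of all genes, at -0.121 beside -0.049 and -0.081 beside -0.012 with centred arrays.

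By complex, with quantile normalization, the falls were most frequent in succinate dehydrogenase, cytochrome c oxidase and ATP synthase. Counts by complex under the other scalings, which moved the balance, are not given here. Of all genes 38.3% were lower and 33.9% higher than in EncT. Against EncT 3 of 4 members of complex II, 9 of 15 of complex IV and 11 of 17 of complex V were lower, and 0, 2 and 3 were higher. Complex I had 11 higher, Ndufa4 among them by its symbol, and 12 lower of 35, and complex III 3 and 3 of 9. The marker sums of B cells, macrophages and T cells given above moved with all of these differences, and their part in them was not tested.

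The largest rise was that of Cox6a2, the isoform of the Cox6a subunit known from heart and skeletal muscle (chromosome 7, 128205435 to 128206366). It read 8.74, 8.43 and 8.66 log2 in iFoxA1Treg, 6.23, 6.17 and 6.20 in nFoxA1Treg, 6.11, 6.47 and 6.14 in Treg and 6.36, 6.20 and 6.07 in EncT. The iFoxA1Treg arrays stood far above the other 9, which overlapped, with a fold of 5.27 over EncT (log2 change 2.40, SE 0.115, adjusted p = 4.97e-10). Its partner isoform Cox6a1, found in most tissues, read 12.30, 12.38 and 12.41 in iFoxA1Treg against 12.42, 12.59 and 12.71 in EncT. That fall of 0.20 on the log2 scale (adjusted p = 0.0308) turned to 0.01 with median-centred arrays (adjusted p = 0.888). It was also not called without EncT replicate 2 or 3 or without iFoxA1Treg replicate 1 or 2 (adjusted p = 0.0645, 0.147, 0.103 and 0.0552).

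Cox6b2, the isoform of Cox6b known from testis, was the member with the largest fall. It read 3.24, 3.55 and 4.26 log2 in iFoxA1Treg, 5.90, 6.28 and 6.79 in nFoxA1Treg, 6.41, 6.37 and 6.62 in Treg and 5.38, 6.35 and 5.94 in EncT. The log2 change against EncT was -2.20 (SE 0.289, adjusted p = 1.28e-05). The iFoxA1Treg mean lay below the filter level, where noise stretches log2 differences, and on the scale log2(value + 16) the change was -1.38. Cox6b1, the common isoform, fell by 0.41 on the log2 scale (adjusted p = 5.86e-06). Cox7a1 also fell against nFoxA1Treg (-0.88) and Treg (-1.26), while against EncT it was not called (adjusted p = 0.0504). Its iFoxA1Treg mean of 3.61 log2 lay below the filter level too, and on the scale log2(value + 16) the 2 falls were -0.425 and -0.664.

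Ndufa4, first described in complex I and now regarded as a subunit of cytochrome c oxidase, read 10.67, 10.71 and 10.72 log2 in iFoxA1Treg, 9.16, 9.09 and 8.84 in nFoxA1Treg, 9.01, 8.99 and 9.02 in Treg and 9.65, 8.97 and 9.23 in EncT. Every iFoxA1Treg array was at least 1 log2 unit above every other array, with a log2 change of 1.42 against EncT (SE 0.129, adjusted p = 3.29e-07). Ndufa4l2, its paralog known as a target of the hypoxia factor HIF-1, was dim on all arrays and not called in any comparison. Ndufa6 was also highest in iFoxA1Treg, at 10.89, 10.84 and 10.96, with a log2 change of 0.64 against EncT (adjusted p = 3.08e-06). Ndufa1, a membrane subunit encoded on the X chromosome, was the complex I member with the smallest adjusted p against EncT (log2 change -0.46, adjusted p = 8.5e-08).

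Sdhc, a membrane anchor of complex II (chromosome 1, 171129157 to 171150640), was the called member with the smallest adjusted p of its complex. It read 7.56, 7.59 and 7.55 log2 in iFoxA1Treg, 9.10, 9.09 and 9.14 in nFoxA1Treg, 8.96, 8.99 and 9.14 in Treg and 8.76, 9.05 and 9.04 in EncT. The iFoxA1Treg arrays lay over 1 log2 unit below all others, and the log2 change against EncT was -1.38 (SE 0.0751, adjusted p = 1.7e-09). Its complex did not move as a block: Sdha changed by -0.42 (adjusted p = 9.66e-06), Sdhb by -0.19 (adjusted p = 0.00679), and Sdhd, the other anchor, by -0.03 (95% interval -0.168 to 0.109), which was not called. Against nFoxA1Treg Sdhd was called (-0.17, adjusted p = 0.0285), but not without nFoxA1Treg replicate 2 (adjusted p = 0.12) or iFoxA1Treg replicate 1 or 2 (adjusted p = 0.1 and 0.0632).

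Cyc1 read 9.60, 9.66 and 9.69 log2 in iFoxA1Treg, 10.54, 10.53 and 10.55 in nFoxA1Treg, 10.55, 10.59 and 10.53 in Treg and 10.24, 10.56 and 10.50 in EncT. The log2 change against EncT was -0.78 (SE 0.0659, adjusted p = 1.49e-07). The 3 ring genes of ATP synthase differed from each other. Atp5g2 was at 10.62, 10.70 and 10.79 in iFoxA1Treg against 11.39, 11.40 and 11.51 in EncT (log2 change -0.73, adjusted p = 2.43e-08), and Atp5g3 at 11.57, 11.67 and 11.68 against 11.97, 12.15 and 12.20 (-0.46, adjusted p = 1.29e-05). Atp5g1, at 9.46, 9.47 and 9.45 in iFoxA1Treg, was higher than in EncT by 0.27 (adjusted p = 0.00282), though not with the values as deposited (adjusted p = 0.0752), and was not called against nFoxA1Treg or Treg (-0.04 and 0.03). Cox7c in iFoxA1Treg, at 6.76, 6.66 and 6.51, lay between EncT and the other 2 groups without overlapping either. Its second probe set did not show the difference from EncT, with means of 4.51 in iFoxA1Treg and 4.56 in EncT (adjusted p = 0.89 over all probe sets).

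**Figure D4:**
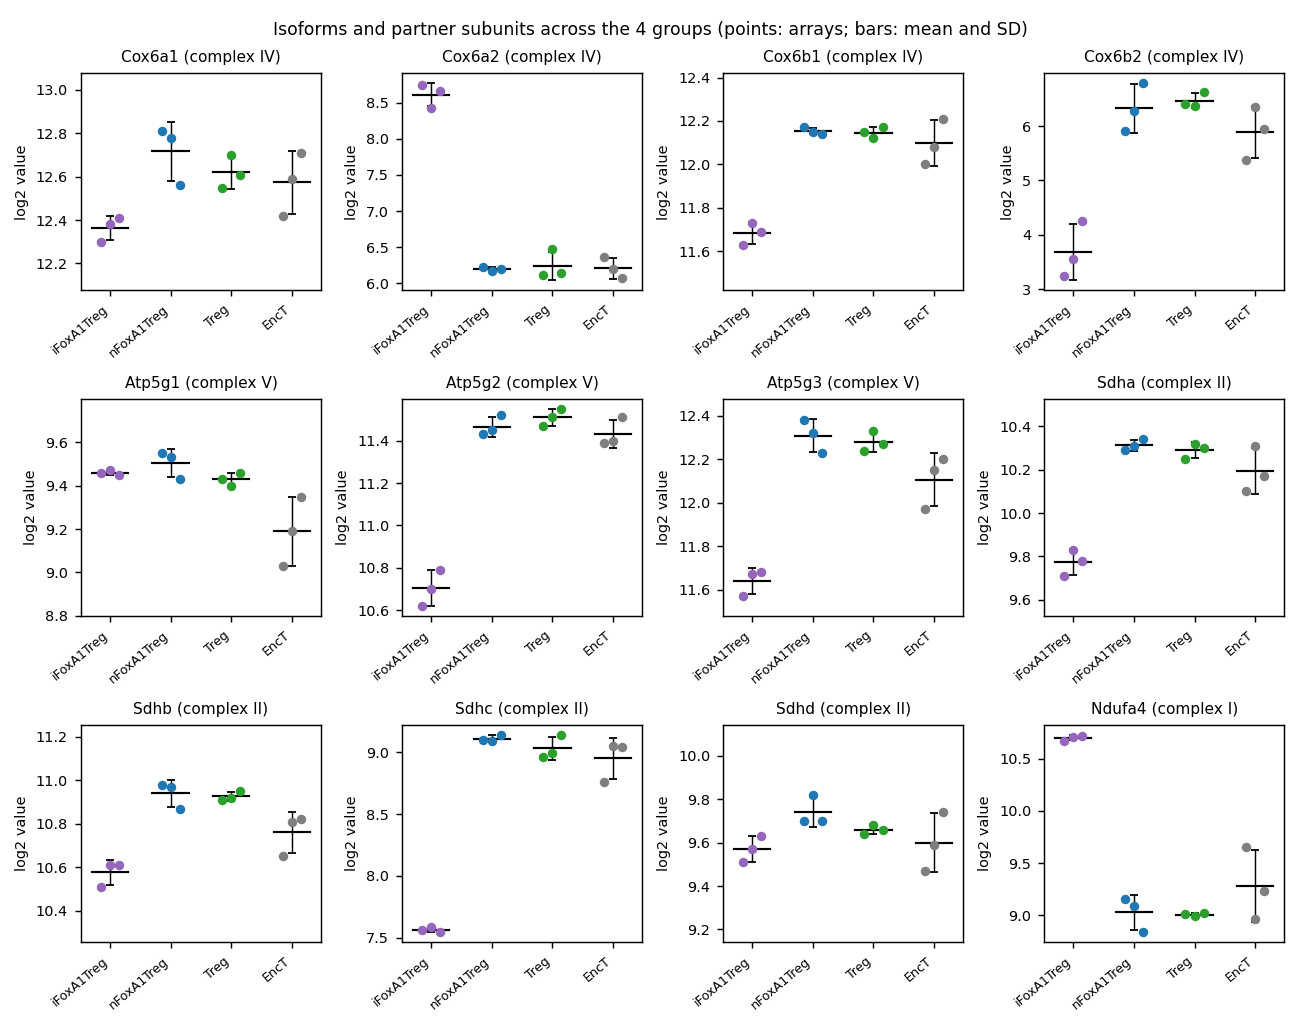
Log2 values on each array (points) with the group mean and SD (bars) for isoform pairs of complex IV, the 3 ring genes of complex V, the 4 complex II genes and Ndufa4, groups from left to right iFoxA1Treg, nFoxA1Treg, Treg and EncT, each panel with its own axis, none starting at 0. In iFoxA1Treg Cox6a2 and Ndufa4 are higher and Cox6b2, Sdhc and Atp5g2 lower than in the other 3 groups, whereas Sdhd overlaps EncT and Atp5g1 overlaps Treg.

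Probe sets of the same gene did not always give the same answer in these arrays. Of the 45 members with several probe sets past the filter, called probe sets pointed both ways for 5 in iFoxA1Treg minus EncT (Ndufa12, Ndufa3, Ndufa5, Ndufab1 and Ndufb2), for 3 in iFoxA1Treg minus Treg (Ndufab1, Ndufb2 and Ndufs4) and for 0 in iFoxA1Treg minus nFoxA1Treg. In nFoxA1Treg and in Treg minus EncT none pointed both ways. With all probe sets tested together, the chosen probe set was called for 12 of the 45 in nFoxA1Treg and for 11 in Treg, and for 9 and 6 of these all probe sets were called in 1 direction. Atp5a1 in nFoxA1Treg was not among the 12 (adjusted p = 0.0505 in that fit).

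Genes around the chain were read from 5 lists, and their counts stand beside backgrounds of 8.46% higher and 11.2% lower among all genes in nFoxA1Treg minus EncT, and 6.23% and 10.3% in Treg minus EncT. Of 42 assembly factors 8 rose and 3 fell in nFoxA1Treg against EncT, and 5 rose and 3 fell in Treg (median changes 0.093 and 0.067). Coa7, an assembly factor of cytochrome c oxidase, had the smallest adjusted p in both, with 7.08, 7.01 and 7.09 log2 in nFoxA1Treg and 6.93, 6.94 and 7.02 in Treg, against 6.36, 6.67 and 6.62 in EncT (log2 changes 0.51 and 0.41, adjusted p = 0.00171 and 0.00725). Of 19 genes for ubiquinone, cytochrome c and nucleotide exchange 3 rose and 1 fell in nFoxA1Treg, and 3 rose and 0 fell in Treg (medians 0.054 and 0.061). Coq7, an enzyme of ubiquinone synthesis, changed by 0.53 in nFoxA1Treg and 0.40 in Treg (adjusted p = 0.00169 and 0.0104). Of 17 genes of the citric acid cycle and pyruvate dehydrogenase 1 rose and 1 fell in nFoxA1Treg, and 0 passed in Treg (medians 0.112 and 0.074). The rise was that of Fh1, fumarate hydratase (0.17, adjusted p = 0.0163).

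Of 16 regulators of mitochondrial biogenesis 3 rose and 2 fell in nFoxA1Treg, and 2 rose and 1 fell in Treg (medians 0.06 and 0.037). Nrf1, whose product binds the NRF-1 letters shown above, read 8.0, 8.07 and 7.92 log2 in nFoxA1Treg and 8.01, 7.99 and 8.0 in Treg, against 7.49, 7.44 and 7.50 in EncT. The groups did not overlap, and the log2 changes were 0.52 and 0.52 (adjusted p = 0.000675 and 0.00085). The fifth list held genes that restrain respiration or respond to oxygen: 0 of 11 rose and 7 fell in nFoxA1Treg (median -0.672), and 1 rose and 7 fell in Treg (median -0.701). Egln3, an oxygen-dependent hydroxylase that marks HIF for destruction, read 8.99, 8.95 and 8.91 in nFoxA1Treg and 9.04, 9.01 and 8.88 in Treg, against 9.96, 9.50 and 9.57 in EncT (log2 changes -0.73 and -0.70, adjusted p = 0.00039 and 0.000706). EncT replicate 1, the lowest EncT array for many subunit genes, was the highest for Egln3. The sums of dendritic cell markers were 115.7 to 228.8 in nFoxA1Treg, 226.4 to 294.1 in Treg and 431.4 to 511 in EncT. Those of macrophage markers were 160.6 to 219.2, 194.4 to 223.3 and 245.7 to 291.4. For CD8 T and NK cell markers they were 336.8 to 396.5, 365.7 to 375 and 503.9 to 666.1. Erythroid sums were 114.6 to 125.7, 120.4 to 270 and 534.9 to 924.5, but those markers disagreed. Of 3 tested, 1 was higher and 1 lower in nFoxA1Treg than in EncT. The regulatory T cell sums, given above, were lower in EncT, and the B cell sums overlapped. The part of these markers in the differences from EncT was not tested. In iFoxA1Treg minus EncT, where 33.9% of all genes were higher and 38.3% lower, 12 assembly factors were higher and 13 lower, 4 carrier and exchange genes were higher and 10 lower, and 4 genes of the citric acid cycle list were higher and 10 lower. Of the biogenesis regulators 6 were higher and 6 lower there, and of the genes that restrain respiration or respond to oxygen 0 were higher and 9 lower.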

How the data were processed

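Total RNA from 12 samples was amplified from its 3′ ends and hybridised to arrays, per the labels' protocols. The authors' deposited table holds log2 values per probe set. PLIER, an algorithm that turns the signals of a probe set into 1 value, is named in the submitters' processing notes. The sources used here give neither its version nor its settings, and name no scaling between arrays. That the scale is log2 was read from the values.

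Groups were taken from the labels. The members, gene lists and named genes were chosen with earlier results of these data known. Array medians spanned 0.202 log2 (4.64 to 4.84), and the arrays were brought together by quantile normalization. The brightest 60% of probe sets by mean were kept (from 4.05 log2 up), and each gene was read by its brightest probe set with 1 symbol (12609 genes). Of 45037 probe sets 34945 had 1 gene symbol, 932 several and 9160 none. Limma 3.58.1 in R 4.3.3 was run on the 12 arrays with a mean for each group, an intensity trend and 6 contrasts, which leaves 8 residual degrees of freedom. All tests are two-sided, with Benjamini-Hochberg adjustment over all genes of a comparison and 0.05 as the threshold. The scripts were tested on simulated data.

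Named members were up to 8 called members per comparison with the largest changes and no overlap, the member with the smallest adjusted p of each complex, preset isoform sets, Sdha to Sdhd and Cyc1, and from each other list the called gene with the smallest adjusted p. Other members named were chosen after their values were seen. Alternatives were other scalings, filters, probe set choices, variance models, a replicate block and leaving out arrays. Gene positions and promoters are RefSeq's, GRCm38.p6.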

Additional observations from a re-analysis of the deposited data

How the results depend on the processing

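Across the alternatives, 146 of 165 recomputed counts of called members stayed within 1.5 times the reported count and 19 did not. All 19 were of nFoxA1Treg minus EncT, Treg minus EncT or the F test. The pooled share does not measure how stable those were. It includes nFoxA1Treg minus Treg, with 0 members called, and the comparisons of iFoxA1Treg, with 71.2% to 77.5% called. Of the recomputed named calls 1560 kept their direction and side of the threshold, 66 lost the threshold and 2 reversed. In nFoxA1Treg minus EncT 6 of 10 named members stayed called under every alternative, and in Treg minus EncT also 6 of 10. In iFoxA1Treg minus EncT, nFoxA1Treg and Treg it was 14 of 18, 15 of 17 and 13 of 15. The reversals were both of Cox6a1 with arrays centred on their medians, to 0.0136 in iFoxA1Treg minus EncT and 0.0024 in iFoxA1Treg minus Treg (adjusted p = 0.888 and 0.98). Without an intensity trend the called members numbered 10 in nFoxA1Treg minus EncT, 7 in Treg minus EncT and 8 by the F test over 3 groups. With the arrays of the compared groups alone, the first and second counts were 7 and 8. With array weights 26 were called in Treg minus EncT and 29 by the F test. The share of all genes called under these settings is not given here. The counts therefore cannot tell a shift of the members from a shift of all genes. The causes were not tested. Fits of the compared groups alone also had fewer arrays.

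Leaving out 1 array at a time gave 8 to 22 called members in nFoxA1Treg minus EncT. The 8 were 10% (background 12%) and the 22, without EncT replicate 2, were 27.5% (background 23.9%). In Treg minus EncT the counts were 7 to 18, and the backgrounds of the settings with 7 are given above. The 18 were 22.5%, with a background of 21.5% without EncT replicate 2 and 17.3% without nFoxA1Treg replicate 3. Leaving out 1 array gave 0 in nFoxA1Treg minus Treg, 54 to 58 in iFoxA1Treg minus EncT, 57 to 63 in iFoxA1Treg minus nFoxA1Treg and 51 to 62 in iFoxA1Treg minus Treg. For these comparisons the share of all genes called with an array left out is not given here. The F test called 8 to 18, with 8 without EncT replicate 1 (10%, background 11%) and 18 without EncT replicate 2 (22.5%, background 20.9%). Without nFoxA1Treg replicate 1 and 2 it called 10 and 9 (12.5% and 11.2%, backgrounds 12.7% and 12.5%). Without Treg replicate 1 or 2 it called 10 (12.5%, backgrounds 14.4% and 12.7%). The medians over the members ran from 0.0476 to 0.0805, 0.036 to 0.0716, -0.006 to 0.0064, -0.1456 to -0.1115, -0.2013 to -0.1479 and -0.1926 to -0.1547 for the comparisons in the same order. Without the iFoxA1Treg arrays 18 members were called in nFoxA1Treg minus EncT (background 18.2%) and 14 in Treg minus EncT (background 14.3%).

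Scaling moved medians. With median-centred arrays they were 0.0856 in nFoxA1Treg minus EncT, 0.037 in nFoxA1Treg minus Treg, -0.0409 in iFoxA1Treg minus EncT, -0.121 in iFoxA1Treg minus nFoxA1Treg and -0.0805 in iFoxA1Treg minus Treg. Those of all genes were 0.003, 0.041, -0.04, -0.049 and -0.012 in the same order. On the deposited scale the last 4 comparisons gave 0.0177, -0.1816, -0.2423 and -0.2211 for the members and 0.021, -0.181, -0.171 and -0.153 for all genes. Without probe sets for shared or cross-hybridising probes the members' medians were 0.0076 in nFoxA1Treg minus Treg and -0.1681 in iFoxA1Treg minus EncT, and with the mean of a gene's probe sets -0.0035 in nFoxA1Treg minus Treg. Cox7a1 has no value under the stricter filter, which it does not pass.

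Replicate numbers gave no clear sign of pairing: deviations of same-numbered arrays from their group means correlated at -0.189 to 0.207, over 0.1 in 3 of 18 pairs. For arrays of different number and group the range was -0.169 to 0.262. Deviations from means of 3 arrays cannot exclude a weak pairing. With the replicate number as a block the counts were 19 in nFoxA1Treg minus EncT, 15 in Treg minus EncT, 0 in nFoxA1Treg minus Treg, 14 by the F test, and 57, 63 and 59 in iFoxA1Treg minus EncT, nFoxA1Treg and Treg. The share of all genes called with the block is not given here either. Detection calls of the arrays were not used here, so levels near the filter, such as Cox6b2 in iFoxA1Treg, Cox7a1, Cox4i2 and Ndufa4l2, are the least certain.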
